A study of Mus musculus with 6 samples.

Results

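miR-139-5p, miR-151-5p, miR-331-3p and miR-652-3p are 4 mature miRNAs from 4 chromosomes, taken from a small RNA sequencing study of mouse liver immune cells. They were chosen by their levels in these data: each was 3-fold or more lower in ConA+Vehicle libraries than in Vehicle libraries, and their genes are unlinked. They are 4 of the 1960 miRNAs in the deposited table and 4 of the 297 with enough counts to test; all 4 passed that filter. The difference between ConA+Vehicle and Vehicle libraries is therefore given as a description, without a test. The 3-fold rule uses no ConA+D8THC value, but the 4 were chosen with earlier results of these data known.

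All mice were wildtype C57BL/6J females aged 10 weeks. ConA+D8THC mice were given concanavalin A (ConA) into the retro-orbital sinus at 12.5 mg/kg. ConA is a lectin from jack beans that stimulates T cells and in mice produces a T cell-dependent hepatitis. These mice were also injected intraperitoneally with the cannabinoid delta-8-tetrahydrocannabinol (D8THC) at a dose of 20 mg/kg, in a volume of 100 µL, once between 15 and 18 h ahead of ConA and once 30 min afterwards. ConA+Vehicle mice were given the same ConA dose and, by the group's name, vehicle in place of D8THC, and Vehicle mice, given DMSO in corn oil, were without disease. Each group had 2 libraries, called biological replicates. How many mice went into a library, and when tissue was taken, were not given in the sources used here, so p-values measure the spread between these libraries only.

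A mature miRNA is a short RNA cut from one arm of a hairpin and loaded into an Argonaute protein, where bases 2 to 8, the seed, pair with target mRNAs and lower their translation or stability. Many miRNA hairpins lie inside introns of protein-coding genes and can be made from the host's transcript. miR-139 lies in the gene for the phosphodiesterase PDE2A and is described as a brake on growth and invasion in several human cancers. miR-151 lies in the gene for focal adhesion kinase. miR-331-3p is known to target the receptor tyrosine kinase ERBB2 in human prostate cancer cells. miR-652 lies in an intron of TMEM164, a transmembrane protein gene.

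RefSeq (GRCm38.p6) gave the mature sequence of 3 of the 4 miRNAs. They are shown with the seed in capitals, since the seed is what a miRNA shares with others that bind the same sites.
miR-139-5p: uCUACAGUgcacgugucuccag
miR-331-3p: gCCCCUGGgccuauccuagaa
miR-652-3p: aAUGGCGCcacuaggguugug
The 3 seeds differ from one another, and 0 other mature names among the 1679 of the RefSeq table carry any of them. Names missing from that table, miR-151-5p and some other tested miRNAs among them, were not compared. The GC content was 54.5% for miR-139-5p, 61.9% for miR-331-3p and 57.1% for miR-652-3p. Each was above the median of 45.5% over the 250 tested miRNAs with a sequence in that table.

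In mm10 (GENCODE M21 genes), Mir139 lies at chr7:101475376-101475443 on the plus strand, in an intron of Pde2a. Mir151 lies at chr15:73254815-73254882 on the minus strand, in an intron of Ptk2, the focal adhesion kinase gene. Mir331 lies at chr10:93963768-93963863 on the minus strand within Vezt, whose protein is found at adherens junctions; of the 2 coding transcripts that span it, 1 has it in an intron and 1 in a UTR. Mir652 lies at chrX:142739000-142739097 on the plus strand, in an intron of Tmem164. A same-strand intron was also the place of 67 of the 201 hairpins of tested miRNAs in RefSeq, or 33.3%. The hairpins lay 53.7 kb, 168 kb, 72.0 kb and 57.6 kb from the start of Pde2a, Ptk2, Vezt and Tmem164, in that order. No host mRNA was measured in these small RNA libraries.

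The libraries held 913285 and 690713 counts in ConA+D8THC, 381274 and 322764 in ConA+Vehicle, and 753887 and 1172389 in Vehicle mice. Marker miRNAs of several cell types differed between the groups. The endothelial pair, both arms of miR-126a, made up 20.7% to 26.7% of counts in ConA+D8THC libraries, 12.8% to 13.2% in ConA+Vehicle libraries and 32.7% to 34.2% in Vehicle libraries. The pan-haematopoietic pair, both arms of miR-142a, made up 7.72% to 11.2%, 9.03% to 10.3% and 2.53% to 7.31% in the same order of groups, less than the endothelial pair in each library although the cells were labelled as immune cells. For 6 hepatocyte markers, among them miR-122-5p, the shares were 5.18% to 7.15%, 17.1% to 19.7% and 8.35% to 13.9%, and for the neutrophil pair (both arms of miR-223) 1.48% to 2.17%, 2.75% to 2.91% and 0.333% to 0.353%. For the resident macrophage pair (both arms of miR-511) they were 0.00405% to 0.00569%, 0.00186% to 0.00210% and 0.0113% to 0.0154%. For 3 lymphocyte markers they were 0.637% to 1.04%, 0.868% to 1.11% and 0.562% to 0.809%, and for 4 erythroid markers 0.0439% to 0.0557%, 0.0855% to 0.180% and 0.0434% to 0.103%. For 5 markers of stellate cells and fibroblasts they were 0.743% to 1.26%, 0.740% to 1.29% and 1.28% to 1.32%, and for 5 of bile duct epithelium 0.357% to 0.509%, 0.427% to 0.482% and 0.427% to 0.470%. Of the 31 markers, 0 had a count of 0 in any library. In several lists the markers did not all move together. Mean CPM (defined below) was higher in ConA+Vehicle than in Vehicle libraries for each hepatocyte marker except miR-122-3p (75.5 against 173 CPM). It was lower there for each stellate cell and fibroblast marker except miR-143-3p (5856 against 4374 CPM). In ConA+D8THC against Vehicle libraries, mean CPM was 22.0 against 112 for miR-511-3p and 24.7 against 25.9 for miR-511-5p. In ConA+D8THC against ConA+Vehicle libraries, it was 17331 against 28525 for miR-223-3p and 154 against 133 for miR-223-5p.

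miR-139-5p was the most abundant of the 4. It had 708 and 573 counts in ConA+D8THC libraries, 257 and 174 in ConA+Vehicle libraries, and 1504 and 3415 in Vehicle libraries. In CPM, counts scaled to a common library size after adjustment by the trimmed mean of M-values, this was 731 and 815 CPM in ConA+D8THC, 641 and 576 CPM in ConA+Vehicle, and 2075 and 2994 CPM in Vehicle libraries. Both Vehicle libraries lay well above the other 4, and the ConA+D8THC libraries lay a little above the ConA+Vehicle libraries without overlap.

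miR-151-5p had 112 and 125 counts in ConA+D8THC libraries, 44 and 30 in ConA+Vehicle libraries, and 312 and 710 in Vehicle libraries. Its levels were 116 and 178 CPM in ConA+D8THC, 109.7 and 99.3 CPM in ConA+Vehicle, and 431 and 622 CPM in Vehicle libraries. The order of the groups was that of miR-139-5p, and the lower ConA+D8THC library lay close to the higher ConA+Vehicle library.

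miR-331-3p was the rarest of the 4, with 37 and 26 counts in ConA+D8THC libraries, 5 and 4 in ConA+Vehicle libraries, and 50 and 100 in Vehicle libraries. Its levels were 38.2 CPM (95% exact Poisson interval 26.9 to 52.6) and 37.0 CPM (24.2 to 54.2) in ConA+D8THC libraries. In ConA+Vehicle libraries they were 12.5 CPM (4.05 to 29.1) and 13.2 CPM (3.61 to 33.9). In Vehicle libraries they were 69.0 CPM (51.2 to 91.0) and 87.7 CPM (71.3 to 107). The ConA+D8THC libraries stood between the other groups. Their counting intervals overlapped those of the ConA+Vehicle libraries and that of Vehicle replicate 1. Such intervals cover counting error only.

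miR-652-3p had 107 and 77 counts in ConA+D8THC libraries, 54 and 31 in ConA+Vehicle libraries, and 296 and 431 in Vehicle libraries. Its levels were 110.4 and 109.5 CPM in ConA+D8THC, 135 and 103 CPM in ConA+Vehicle, and 408 and 378 CPM in Vehicle libraries. Here the ConA+D8THC libraries lay within the range of the ConA+Vehicle libraries, and both groups lay below Vehicle.

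**Figure D1:**
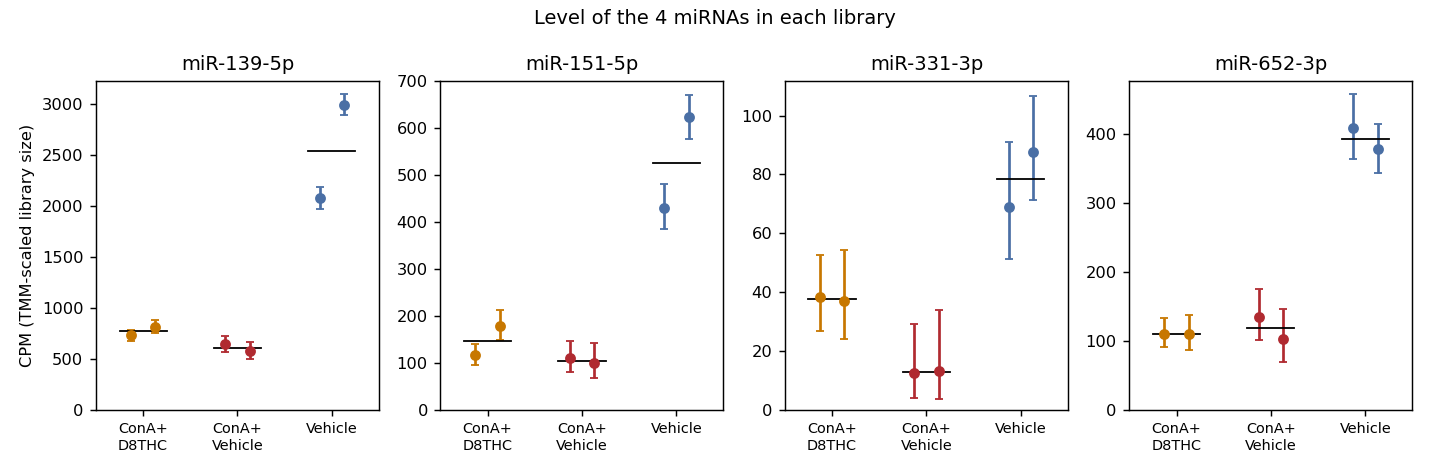
Level of each of the 4 miRNAs in each library (CPM, linear axis), by group. Points are libraries, error bars are 95% exact Poisson intervals and short lines are group means; the Vehicle libraries are highest in each panel, and miR-331-3p has its ConA+D8THC libraries (38.2 and 37.0 CPM) between the other groups.

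Summed without any scaling between libraries, the 4 miRNAs made up 0.106% (95% Wilson interval 0.0991 to 0.112) and 0.116% (0.108 to 0.124) of the counts of the ConA+D8THC libraries. They made up 0.0944% (0.0852 to 0.105) and 0.0740% (0.0652 to 0.0840) in ConA+Vehicle libraries, and 0.287% (0.275 to 0.299) and 0.397% (0.386 to 0.409) in Vehicle libraries. The sum mostly follows miR-139-5p, which held 69.6% to 73.4% of it in each library. In a bulk library, fewer cells of a type and less of the RNA per cell cannot be told apart.

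In ConA+Vehicle against Vehicle, the contrast that chose them, the 4 miRNAs were lower by 3.29-fold (miR-652-3p) to 6.07-fold (miR-331-3p). The log2 fold change was -2.60 ± 0.42 (SE) for miR-331-3p, -2.33 ± 0.32 for miR-151-5p, -2.06 ± 0.25 for miR-139-5p and -1.72 ± 0.28 for miR-652-3p. Counted from the lowest of the 297 tested miRNAs they stood at ranks 3, 5, 10 and 15. For all 4, both ConA+Vehicle libraries lay below both Vehicle libraries, as they did for 29.3% of the tested miRNAs. At an adjusted p under 0.05 (edgeR quasi-likelihood test, Benjamini-Hochberg), 16.8% of the tested miRNAs were called lower and 36.7% were called in either direction. The count behind the second share was 109 miRNAs, and it was 67 without ConA+Vehicle replicate 1. A called fall of 3-fold or more was found for 18 miRNAs, or 6.06%, which include the 4 by construction. Of these, 17 averaged at least 10 CPM. The 13 of those that were not picked were miR-511-3p (8.55-fold lower), miR-99b-3p, miR-151-3p, let-7b-3p, miR-598-3p, miR-351-5p, miR-511-5p, miR-100-5p, miR-450b-3p, miR-455-5p, miR-503-3p, miR-10a-5p and miR-99a-5p. The last pair, at 3.08-fold and 3.06-fold, were just inside the limit, and miR-322-3p (2.84-fold) and miR-574-3p (2.83-fold) were just outside it.

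In ConA+D8THC against Vehicle, all 4 miRNAs were lower in ConA+D8THC libraries. Of the 297 tested miRNAs, 14.1% were called lower in this contrast and 32.7% in either direction, and each of the 4 was called lower. The Vehicle libraries are the same ones that chose the 4 for a high level there, so the adjusted p-values of the 4 in this contrast describe the fit and are not independent evidence of a difference. miR-151-5p was 3.61-fold lower (log2 fold change -1.85 ± 0.30 SE, adjusted p = 0.00143, edgeR), miR-652-3p 3.57-fold lower (-1.84 ± 0.27, adjusted p = 0.000811) and miR-139-5p 3.28-fold lower (-1.71 ± 0.24, adjusted p = 0.000668). Both ConA+D8THC libraries lay below both Vehicle libraries for each of them. miR-331-3p was 2.09-fold lower (-1.06 ± 0.31, adjusted p = 0.0261, edgeR), with both ConA+D8THC libraries again below both Vehicle libraries. That non-overlap was seen, in the same direction, for 37.0% of all tested miRNAs. The call for miR-331-3p held in 6 of 13 alternatives, over which its adjusted p ran from 0.00906 to 0.173. It was lost with DESeq2 (0.173), without the filter (0.109), with only the 4 libraries of the contrast (0.102), without ConA+D8THC replicate 1 (0.158) or 2 (0.126), without ConA+Vehicle replicate 2 (0.0518) and without Vehicle replicate 2 (0.150). The number of called miRNAs in this contrast was 97, and 63 without ConA+D8THC replicate 1.

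In ConA+D8THC against ConA+Vehicle, which asks whether the levels differed with the cannabinoid in mice given ConA, 0 of the 4 miRNAs passed the edgeR test at an adjusted p under 0.05. Over all tested miRNAs 3.7% were called, all of them lower, and 0.0% were called higher. DESeq2 and limma-voom also called 0 of the 4. In edgeR's test over all miRNAs, miR-331-3p alone of the members had an unadjusted p under 0.05. It was 2.91-fold higher in ConA+D8THC libraries (log2 fold change 1.54 ± 0.44 SE, adjusted p = 0.0852, edgeR), the fifth largest positive change of 297. Both ConA+D8THC libraries lay above both ConA+Vehicle libraries for miR-331-3p, miR-139-5p and miR-151-5p, as they did for 21.5% of the tested miRNAs. The adjusted p of miR-331-3p ran from 0.0251 to 0.418 over 13 alternatives and passed the threshold in 3 of them, among these without Vehicle replicate 1 (0.0381) and without Vehicle replicate 2 (0.0282), libraries that belong to neither group of this contrast. The values rest on 9 counts in the ConA+Vehicle group. For the other members the log2 fold change was 0.48 ± 0.32 (adjusted p = 0.548, edgeR) for miR-151-5p, 0.34 ± 0.24 (adjusted p = 0.558) for miR-139-5p and -0.12 ± 0.28 (adjusted p = 0.907) for miR-652-3p. A p that misses the threshold does not show equal levels, and the 4 had been chosen for a low level in the same ConA+Vehicle libraries, so a positive difference is not independent of the choice. The count of called miRNAs in this contrast, 11, was 34 and 40 when Vehicle replicate 1 or Vehicle replicate 2 was left out. It was 17 and 24 when ConA+D8THC replicate 1 or ConA+D8THC replicate 2 was left out, and 17 when ConA+Vehicle replicate 2 was.

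The median log2 fold change of the 4 was -2.19 in ConA+Vehicle against Vehicle, 0.41 in ConA+D8THC against ConA+Vehicle and -1.77 in ConA+D8THC against Vehicle. Over all tested miRNAs it was 0.10, -0.04 and -0.06 in the same order. The 3 contrasts share libraries with one another, so their values stand side by side only.

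**Figure D2:**
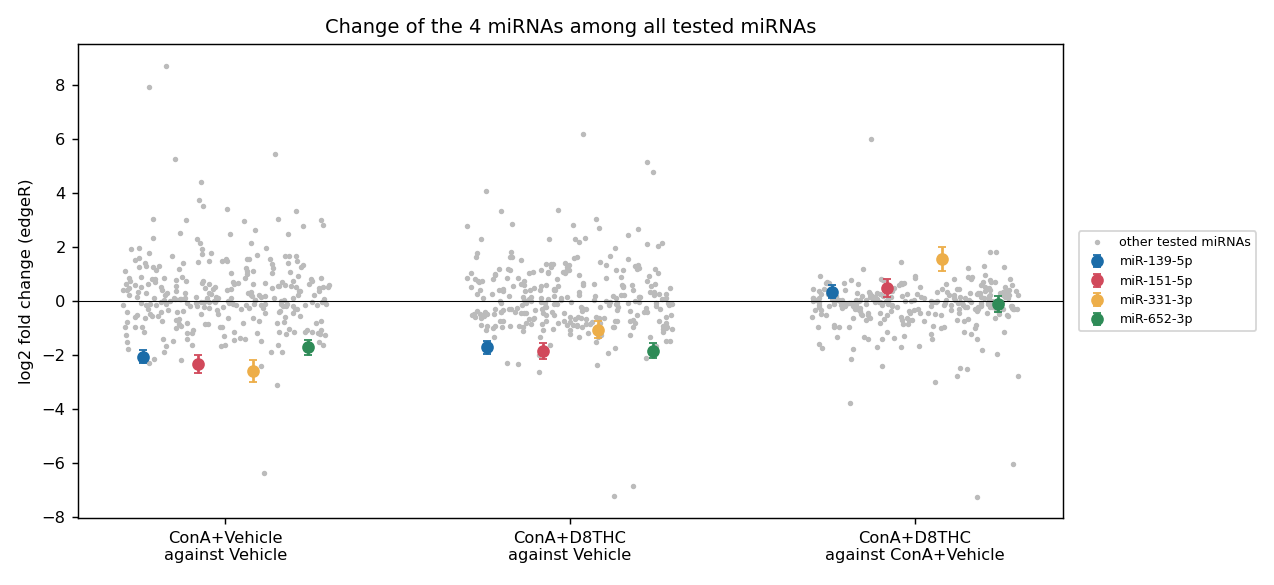
Log2 fold change (edgeR) of each of the 297 tested miRNAs in the 3 contrasts; grey points are other miRNAs with a random horizontal spread, coloured points are the 4 miRNAs with standard errors. The 4 lie in the lower part of both contrasts against Vehicle (-2.60 to -1.06), and miR-331-3p stands at 1.54 in ConA+D8THC against ConA+Vehicle.

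Each of the 4 comes from a hairpin whose opposite arm can also be loaded, and the deposited table counts both arms. The opposite arms miR-139-3p and miR-151-3p had enough counts to test; miR-331-5p and miR-652-5p did not. The sequences below show that the arms of a hairpin carry unlike seeds (capitals in the mature forms), and the miR-139-5p arm stands in capitals within the Mir139 hairpin of 68 bases.
miR-139-3p: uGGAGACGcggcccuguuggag
miR-331-5p: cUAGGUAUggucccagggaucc
miR-652-5p: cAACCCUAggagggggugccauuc
Mir139: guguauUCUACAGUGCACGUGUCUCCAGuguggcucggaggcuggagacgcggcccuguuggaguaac
miR-151-3p had 25.8 and 38.4 CPM in ConA+D8THC, 19.9 and 19.9 CPM in ConA+Vehicle, and 86.9 and 111 CPM in Vehicle libraries. It showed the same order of groups as miR-151-5p, with both Vehicle libraries above the other 4. It was 3.12-fold lower in ConA+D8THC than in Vehicle libraries (log2 fold change -1.64 ± 0.34 SE, adjusted p = 0.00526, edgeR), a call that was lost without ConA+D8THC replicate 1 (adjusted p = 0.0665; range over 13 alternatives 6.51e-05 to 0.0665). In ConA+D8THC against ConA+Vehicle it did not pass (0.67 ± 0.44, adjusted p = 0.534, edgeR). In the contrast behind the choice of its partner it was 4.96-fold lower. That partner was chosen for a high level in the same Vehicle libraries. The adjusted p of miR-151-3p against Vehicle is therefore not independent evidence of a difference.

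miR-139-3p had 16 and 12 counts in ConA+D8THC, 0 and 6 in ConA+Vehicle, and 23 and 53 in Vehicle libraries. This was 16.5 and 17.1 CPM in ConA+D8THC, 0 and 19.9 CPM in ConA+Vehicle, and 31.7 and 46.5 CPM in Vehicle libraries, so that both Vehicle libraries were again highest. It passed the test in neither ConA+D8THC against Vehicle (log2 fold change -1.23 ± 0.58 SE, adjusted p = 0.121, edgeR) nor ConA+D8THC against ConA+Vehicle (0.93 ± 0.88, adjusted p = 0.683). miR-331-5p had at most 4 counts and miR-652-5p at most 2 in a library.

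The share of a hairpin's counts that came from the listed arm is a ratio within a library and needs no scaling. For Mir151, miR-151-5p held 81.8% and 82.2% in ConA+D8THC, 84.6% and 83.3% in ConA+Vehicle, and 83.2% and 84.8% in Vehicle libraries. The lowest and highest of these shares were close, and their Wilson intervals overlapped, while the level of miR-151-5p was 5.03-fold lower in ConA+Vehicle than in Vehicle libraries. For Mir139 the 5p arm held 97.8% and 97.9% in ConA+D8THC, 100% and 96.7% in ConA+Vehicle, and 98.5% and 98.5% in Vehicle libraries. For Mir331 the 3p arm held 97.4% and 96.3% in ConA+D8THC, 71.4% and 100% in ConA+Vehicle, and 98.0% and 96.2% in Vehicle libraries. The 71.4% is 5 of 7 counts (Wilson interval 35.9 to 91.8), and no difference in arm use was detectable at this depth. For Mir652 the 3p arm held 97.5% or more in each library.

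**Figure D3:**
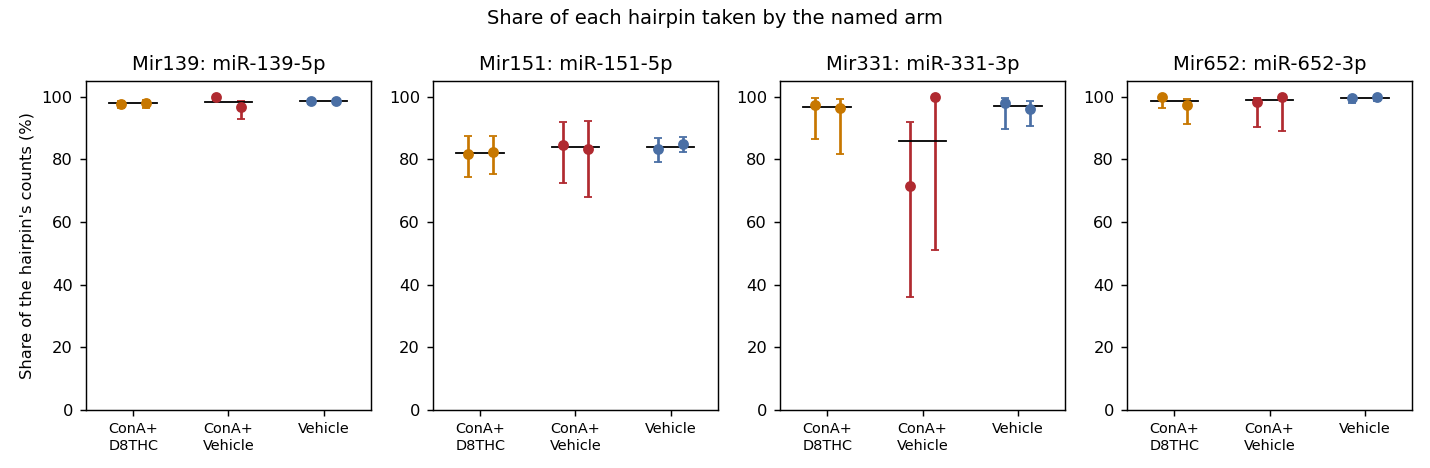
Share of each hairpin's counts that came from the listed arm (percent) in each library, by group, with 95% Wilson intervals and lines at group means. Mir151 stays between 81.8% and 84.8% in all 6 libraries, and the widest intervals are those of Mir331 in ConA+Vehicle libraries, which rest on 7 and 4 counts.

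The proportions of the 4 miRNAs to each other are ratios within a library. For each 100 counts of miR-139-5p there were 15.8 and 21.8 counts of miR-151-5p in ConA+D8THC, 17.1 and 17.2 in ConA+Vehicle, and 20.7 and 20.8 in Vehicle libraries, so that the groups' ratios overlapped or lay close for this pair. Per 100 counts of miR-139-5p there were 5.23 and 4.54 counts of miR-331-3p in ConA+D8THC, 1.95 and 2.30 in ConA+Vehicle, and 3.32 and 2.93 in Vehicle libraries. In this ratio the 3 groups were apart, but its 95% exact binomial intervals in ConA+Vehicle libraries (0.626 to 4.60 and 0.619 to 5.99), which rest on 5 and 4 counts of miR-331-3p, held the Vehicle ratios. The first of these intervals also held the ConA+D8THC ratio of 4.54, and the second held both ConA+D8THC ratios. Per 100 counts of miR-331-3p there were 289 and 296 of miR-652-3p in ConA+D8THC, 1080 and 775 in ConA+Vehicle, and 592 and 431 in Vehicle libraries. The intervals in ConA+Vehicle libraries, 435 to 3460 and 274 to 3022, again overlapped those in Vehicle libraries, 438 to 816 and 346 to 541. The interval of 274 to 3022 also held both ConA+D8THC ratios. With 2 libraries a group the smallest exact two-sided permutation p is 0.333, so these ratios, shares and values per marker count have no test.

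Set against the endothelial pair miR-126a, the differences from Vehicle were smaller than in CPM. Per 1000 miR-126a counts there were 3.74 and 3.11 counts of miR-139-5p in ConA+D8THC, 5.28 and 4.08 in ConA+Vehicle, and 6.10 and 8.52 in Vehicle libraries. On this scale ConA+Vehicle was 1.56-fold lower than Vehicle for miR-139-5p, 1.89-fold for miR-151-5p, 2.30-fold for miR-331-3p and 1.24-fold for miR-652-3p. ConA+D8THC was 2.14-fold, 2.39-fold, 1.34-fold and 2.32-fold lower than Vehicle for miR-139-5p, miR-151-5p, miR-331-3p and miR-652-3p. miR-652-3p had 0.565 and 0.418 counts per 1000 in ConA+D8THC, 1.11 and 0.727 in ConA+Vehicle, and 1.20 and 1.08 in Vehicle libraries, so that ConA+Vehicle and Vehicle overlapped. In ConA+D8THC against ConA+Vehicle the ratio of the group means on this scale was 0.732 for miR-139-5p, 0.790 for miR-151-5p, 1.71 for miR-331-3p and 0.535 for miR-652-3p. In CPM the fitted fold was 1.27-fold and 1.39-fold higher in ConA+D8THC for miR-139-5p and miR-151-5p and 1.08-fold lower for miR-652-3p, so the first pair had the opposite direction against miR-126a and miR-652-3p a larger difference. miR-331-3p was higher in ConA+D8THC libraries on both scales.

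Set against the pan-haematopoietic pair miR-142a, the differences from Vehicle were larger and the Vehicle libraries lay far apart. Per 1000 miR-142a counts there were 6.93 and 10.7 counts of miR-139-5p in ConA+D8THC, 6.56 and 5.97 in ConA+Vehicle, and 27.3 and 115 in Vehicle libraries. For miR-331-3p the values were 0.362 and 0.487 in ConA+D8THC, 0.128 and 0.137 in ConA+Vehicle, and 0.908 and 3.37 in Vehicle libraries. The part that the cell composition shown by these markers had in the levels of the 4 was not tested.

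**Figure D4:**
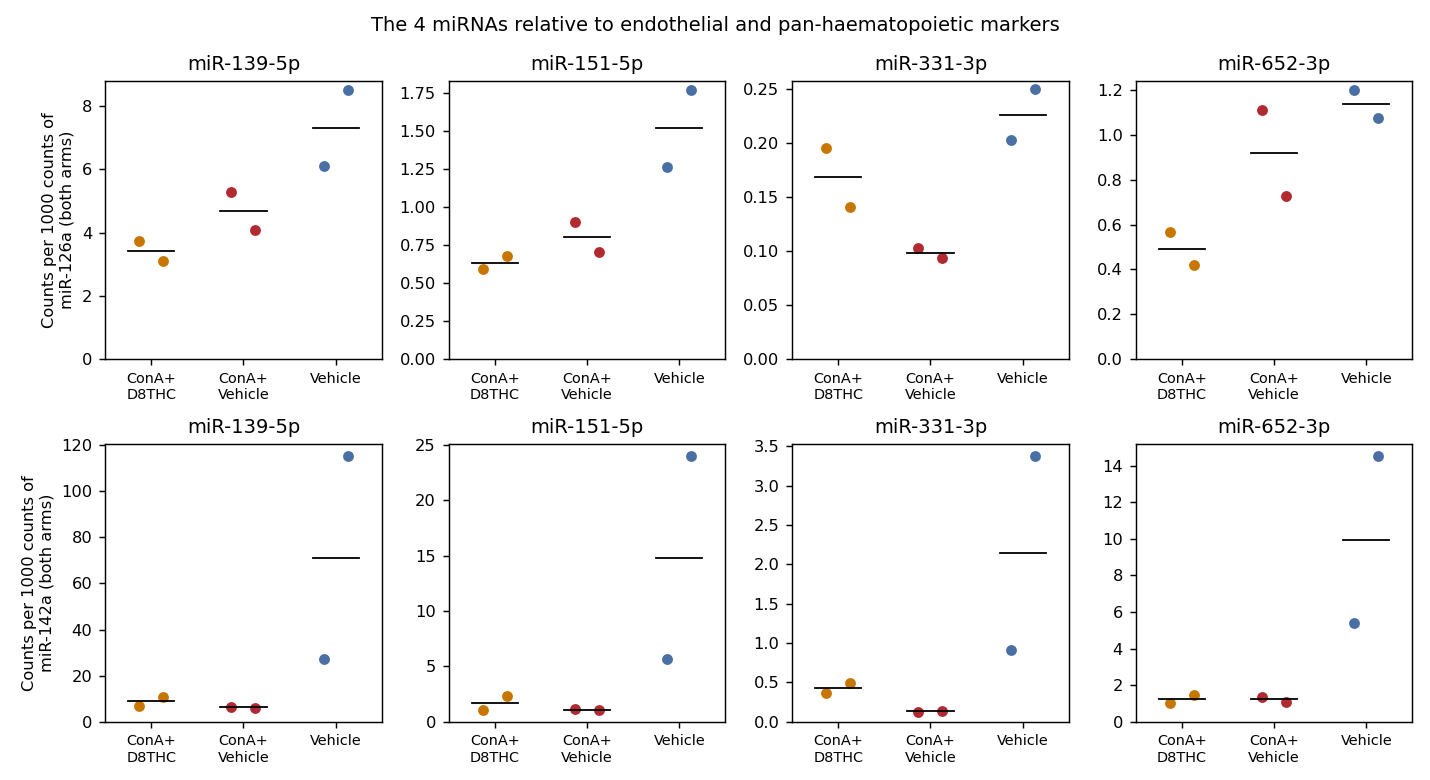
Counts of each of the 4 miRNAs in each library, by group, on linear axes. They are given per 1000 counts of the endothelial pair miR-126a and of the pan-haematopoietic pair miR-142a. Against miR-126a the ConA+Vehicle and Vehicle libraries overlap for miR-652-3p, and against miR-142a the Vehicle libraries are highest for each of the 4 but lie far apart (27.3 and 115 for miR-139-5p).

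Likeness of pattern was measured by Pearson r between log2 CPM values over the 6 libraries, as a description: the points share library, depth and group, and a group difference alone gives a high r. Among the 4, miR-139-5p and miR-151-5p were most alike (r = 0.992), and miR-331-3p and miR-652-3p least (r = 0.772). The 5 other tested miRNAs most like the mean of the 4 were miR-151-3p (r = 0.993), miR-125a-5p (0.983), miR-10a-5p (0.980), let-7e-5p (0.976) and let-7b-3p (0.973). miR-125a-5p averaged 1985 ± 157 CPM in ConA+D8THC, 1331 ± 66.9 CPM in ConA+Vehicle and 3591 ± 610 CPM in Vehicle libraries (SD, n = 2 each). miR-10a-5p, which lies in a Hox gene cluster, averaged 7345 ± 297, 4670 ± 66.3 and 14399 ± 77.0 CPM in the same order. Other let-7 members can share reads with let-7e-5p.

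Taken singly, the 4 had different nearest miRNAs. After its own opposite arm or each other, miR-139-5p was most like miR-23b-3p (r = 0.986), and miR-331-3p was most like miR-99a-5p (0.981) and the endothelial marker miR-126a-3p (0.977). miR-652-3p was most like miR-30c-5p (0.993) and miR-30b-5p (0.990), which are also on the T cell list described last. miR-30c-5p averaged 3523 ± 202 CPM in ConA+D8THC, 3680 ± 543 CPM in ConA+Vehicle and 8817 ± 654 CPM in Vehicle libraries (SD, n = 2 each), so that it, like miR-652-3p, had overlapping levels in the groups given ConA. miR-126a-3p averaged 169366 ± 33822, 93791 ± 8054 and 263518 ± 30229 CPM in the same order of groups. Like miR-331-3p, and also like miR-139-5p and miR-151-5p, it was lowest in ConA+Vehicle libraries.

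**Figure D5:**
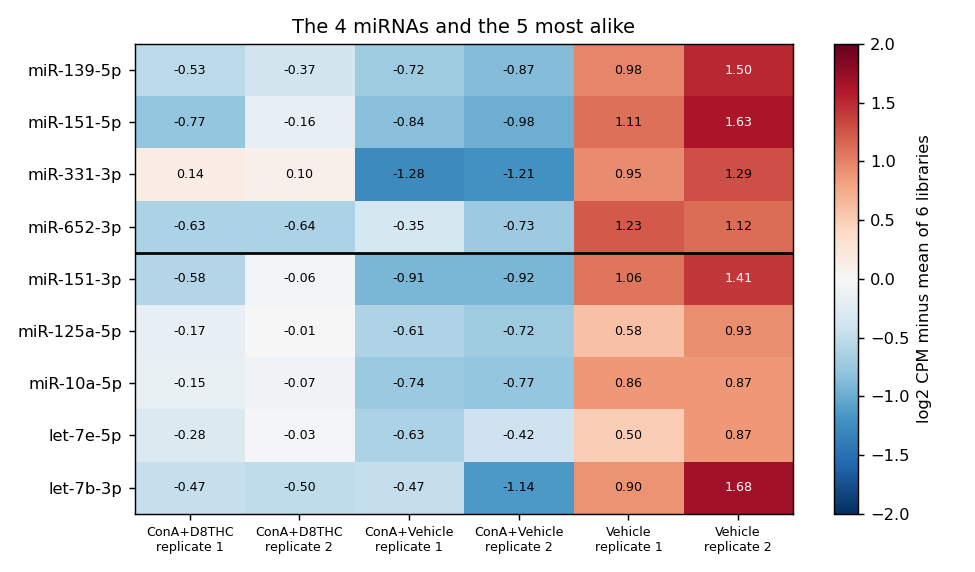
Log2 CPM of the 4 miRNAs (upper rows) and of the 5 tested miRNAs most like their mean (lower rows) in each library, minus each miRNA's mean over the 6 libraries. Vehicle columns are above the mean in each row, and in ConA+D8THC libraries miR-331-3p lies just above its mean (0.14 and 0.10) while the other members lie below theirs.

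ConA acts through T cells, and a list of 13 miRNAs known to fall on T cell activation (miR-150-5p, miR-181a-5p, miR-342-3p and members of the miR-26, miR-29 and miR-30 families) was set beside the 4. In ConA+Vehicle against Vehicle, 3 of the 13 were called lower (miR-30c-5p, 2.40-fold, miR-30b-5p, 2.29-fold, and miR-26a-5p, 1.53-fold), 2 higher (miR-342-3p, 1.65-fold, and miR-29c-3p, 1.54-fold) and 8 not called, with a median log2 fold change of 0.11. Over all tested miRNAs 16.8% were called lower and 19.9% higher. The calls of miR-26a-5p, miR-29c-3p and miR-342-3p were near the threshold and held in 4, 7 and 7 of 13 alternatives, in that order. In ConA+D8THC against Vehicle, 2 were called lower (miR-30b-5p and miR-30c-5p, log2 fold change -1.32 each) and 1 higher (miR-342-3p, 2.12-fold), with a median of -0.05, against 14.1% lower and 18.5% higher over all tested miRNAs. In ConA+D8THC against ConA+Vehicle, 0 of the 13 were called by edgeR, DESeq2 or limma-voom, and 0 had an unadjusted p under 0.05; the median was -0.11. The list's medians thus lay near those of all tested miRNAs, given above.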

How the data were processed

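Raw counts for each mature miRNA were deposited, which the authors made in QIAGEN's GeneGlobe portal from QIAseq libraries, per the labels; the submitters' processing notes name mm10. The aligner, the miRNA annotation release and the counting unit (reads or molecular identifiers) were not given in the sources used here. Counts were tested in R 4.3.3 with edgeR 4.0.16 (filterByExpr, TMM, robust glmQLFit over all 6 libraries, 3 residual degrees of freedom, glmQLFTest), and Benjamini-Hochberg adjustment ran over 297 miRNAs. limma 3.58.1, DESeq2 1.42.0, other scalings, no filter, 4 libraries only, a replicate block and each library left out were alternatives. SEs were obtained by dividing the log2 fold change by the root of its F statistic. Likeness used log2 CPM with a prior count of 2. The procedure was tested on simulated data. The 4 miRNAs and all lists were chosen with earlier results of these data known. miRNAs named beside the 4 are opposite arms, miR-28 and miR-708 relatives, most alike miRNAs, those called 3-fold lower, markers and the T cell list. Intervals used SciPy 1.17.1 and figures matplotlib 3.10.9.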

Additional observations from a re-analysis of the deposited data

How the results depend on the processing

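Of the 156 recomputed values for the 4 miRNAs, 145 kept their direction and their side of the threshold, 3 passed it newly, 7 missed it and 1 turned round: miR-652-3p in ConA+D8THC against ConA+Vehicle, at a log2 fold change of 0.10 without ConA+Vehicle replicate 1 (-0.24 to 0.10 with a library left out). The 156 values include ConA+Vehicle against Vehicle, the contrast that chose the 4, and the other contrasts share libraries with it. A lower level in that contrast was set by the choice, so the tally is not independent evidence of a difference. In ConA+D8THC against ConA+Vehicle, miR-139-3p ran from -0.25 without ConA+Vehicle replicate 1 to 6.77 without ConA+Vehicle replicate 2. miR-30c-5p, at -0.06 there, was at 0.042 with DESeq2, at 0.0058 without a filter and at -0.15 to 0.091 with a library left out (highest when ConA+Vehicle replicate 1 was dropped, and 0.025 when ConA+D8THC replicate 2 was). The number of called miRNAs there was 11, against 17 with upper-quartile factors, 17 with DESeq2 (5 higher and 12 lower), 19 without a filter, 18 with only the 4 libraries of the contrast (4 higher and 14 lower) and 8 to 40 with a library left out. Of the 4 members 0 were called there, and 0 to 1 with a library left out. With a library left out, called miRNAs numbered 67 to 129 in ConA+Vehicle against Vehicle and 63 to 112 in ConA+D8THC against Vehicle. The replicate block gave 44 calls (12 higher and 32 lower) in ConA+D8THC against ConA+Vehicle, 1 of the 4 members among them (miR-331-3p, adjusted p = 0.0251, edgeR); no label says what a replicate number shares, and same-numbered deviations correlated at r = 0.203, 0.238 and 0.0726 over 297 miRNAs. miR-139-3p, with 0 counts in ConA+Vehicle replicate 1, ran from -7.95 to -0.97 in ConA+Vehicle against Vehicle. Without endothelial and hepatocyte marker counts in the denominator, the 4 miRNAs held on average 0.159% of counts in ConA+D8THC, 0.123% in ConA+Vehicle and 0.626% in Vehicle libraries, against 0.111%, 0.0842% and 0.342% of all counts. Leaving out a library for these shares, and for counts per marker count, was chosen after seeing the data. A scaling moved the median of all tested miRNAs by more than 0.1 on the log2 scale in 3 places: to -0.15 with upper-quartile factors in ConA+D8THC against ConA+Vehicle, to -0.00 with DESeq2 in ConA+Vehicle against Vehicle, and to 0.04 with library totals in ConA+D8THC against Vehicle. The cause of these changes was not tested. The fewest counts limit miR-331-3p, whose ConA+Vehicle libraries held 5 and 4.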

Other observations

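The Mir151 hairpin is known to resemble that of miR-28, both being derived from an old LINE-2 repeat. No contrast of the miR-28a arms is given here, only their levels. miR-28a-3p averaged 369 ± 10.1 CPM in ConA+D8THC, 276 ± 12.6 CPM in ConA+Vehicle and 276 ± 52.5 CPM in Vehicle libraries (SD, n = 2 each). miR-28a-5p averaged 12.9 ± 2.17 CPM in ConA+D8THC, 16.2 ± 8.85 CPM in ConA+Vehicle and 25.9 ± 4.38 CPM in Vehicle libraries. As for miR-151-5p, both Vehicle libraries lay above all libraries of mice given ConA. The gap was small here: Vehicle replicate 2 had 22.8 CPM and ConA+Vehicle replicate 1 had 22.4 CPM of miR-28a-5p. Its mature sequence, from RefSeq GRCm38.p6 with the seed in capitals, is shown because miR-151-5p is its relative.
miR-28a-5p: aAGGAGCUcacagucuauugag
miR-708, the other relative, had at most 6 counts of its 5p arm in a library.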
